A study of Caenorhabditis elegans with 6 samples.

Results

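The genes for the proteins of the mitochondrial ribosome were followed in X-irradiated Caenorhabditis elegans, young adult hermaphrodites of this nematode. They were taken by name from the deposited gene table, as genes called mrpl (large subunit) or mrps (small subunit) with a number, which gave 66 of the 45292 genes listed, 39 of the large and 27 of the small subunit. RNA of whole worms was sequenced at 200 Gy, 400 Gy and 0 Gy (gray, the unit of absorbed dose), with 2 libraries at each dose. The worms were synchronized and were treated 24 h after the last larval stage (L4). The 0 Gy worms were the unirradiated group. The sources used here give neither the strain nor the time from irradiation to harvest. Nothing in the labels tells whether replicate libraries stem from separate cultures, and p-values then measure a spread between libraries that may be technical.

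Mitochondria hold their own ribosomes, which translate the few proteins encoded by the mitochondrial genome, all of them subunits of the respiratory chain and the ATP synthase. The proteins of these ribosomes are encoded in the nucleus, made in the cytosol and imported. Some have counterparts in the bacterial ribosome and others are found only in mitochondria. In C. elegans, loss of a mitochondrial ribosomal protein such as MRPS-5 is known to slow respiration, induce the mitochondrial unfolded protein response and lengthen life.

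All 66 members had enough counts to be tested, among 14417 genes. They were expressed at moderate to high levels: the median level at 0 Gy was 79.2 RPKM (reads per kilobase of coding length, relative to the library's total), against 16.9 RPKM over all genes tested. Both subunits were alike in this, with medians of 81.1 RPKM for the large and 76.3 RPKM for the small subunit. As a mean over the 6 libraries, the highest large-subunit members were mrpl-18 (203 RPKM), mrpl-51 (171 RPKM) and mrpl-12 (160 RPKM), and the lowest were mrpl-37 (26.1 RPKM), mrpl-30 (48.8 RPKM) and mrpl-22 (48.8 RPKM). In the small subunit the highest were mrps-33 (199 RPKM), mrps-18A (179 RPKM) and mrps-24 (176 RPKM), and the lowest were mrps-31 (30.1 RPKM), mrps-9 (33.7 RPKM) and mrps-30 (37.2 RPKM). Their coding lengths were short, with a median of 622.5 bases (range 234 to 1572 bases) against 1086 bases over all genes tested. The genes lay on all 5 autosomes, 14 on chromosome I, 12 on II, 21 on III, 10 on IV and 9 on V. Chromosome III held 31.8% of them, against 16% of the genes tested, and the X chromosome held 0 of them, against 13.7% of the genes tested.

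The libraries held 9554479 to 12315765 gene counts each. Levels are given below as CPM, counts relative to the library's total, with library sizes scaled by edgeR's TMM method. Short genes took more of the counts at 200 Gy and less of them at 400 Gy. Regressed on log2 coding length, log2 deviations had slopes of 0.07 and 0.05 in the 0 Gy libraries, -0.28 and -0.53 in the 200 Gy libraries and 0.42 and 0.28 in the 400 Gy libraries. Because the members are short, the main results are given without and with a correction that removes this trend from every library (length-corrected). The labelled doses and this trend cannot be told apart. The share of counts from rrn-3.1, a gene for ribosomal RNA, ran from 0.694% to 9.24% and differed between libraries of a dose.

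In TMM-scaled CPM, the messages of both subunits were most abundant at 200 Gy and least abundant at 400 Gy. Summed over the large subunit, the members had 2066 and 1933 CPM at 0 Gy, 3508 and 3562 CPM at 200 Gy, and 1547 and 1348 CPM at 400 Gy. Summed over the small subunit they had 1402 and 1304 CPM at 0 Gy, 2328 and 2417 CPM at 200 Gy, and 1174 and 1003 CPM at 400 Gy. Without the length correction, the sums of no pair of doses overlapped in either subunit. The means were 2000 ± 94 CPM at 0 Gy, 3535 ± 38.2 CPM at 200 Gy and 1448 ± 141 CPM at 400 Gy for the large subunit, and 1353 ± 69.3, 2372 ± 62.9 and 1088 ± 121 CPM at the same doses for the small subunit (SD, n = 2 libraries per dose). Length-corrected, the median deviation of the large-subunit members from their own mean over the libraries was 0.11 and -0.14 (log2) in the 0 Gy libraries, 0.61 and 0.18 in the 200 Gy libraries, and -0.02 and -0.54 in the 400 Gy libraries. For the small subunit it was 0.12 and -0.19 in the 0 Gy libraries, 0.45 and -0.08 in the 200 Gy libraries, and 0.13 and -0.35 in the 400 Gy libraries. The corrected medians of the large subunit overlapped between 400 Gy and 0 Gy, and those of the small subunit between every pair of doses. In whole-worm RNA, fewer cells of a type and less RNA per cell cannot be told apart. In 38 of the 66 members (26 large, 12 small) every 200 Gy library lay above every 0 Gy library and every 0 Gy library above every 400 Gy library, an order that 12.4% of all genes tested showed. Length-corrected, 17 members (25.8%) had this order, against 6.48% of all genes tested. In 2 members, mrps-15 and mrps-31, all libraries of both doses lay below both 0 Gy libraries, against 11% of all genes tested.

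**Figure D1:**
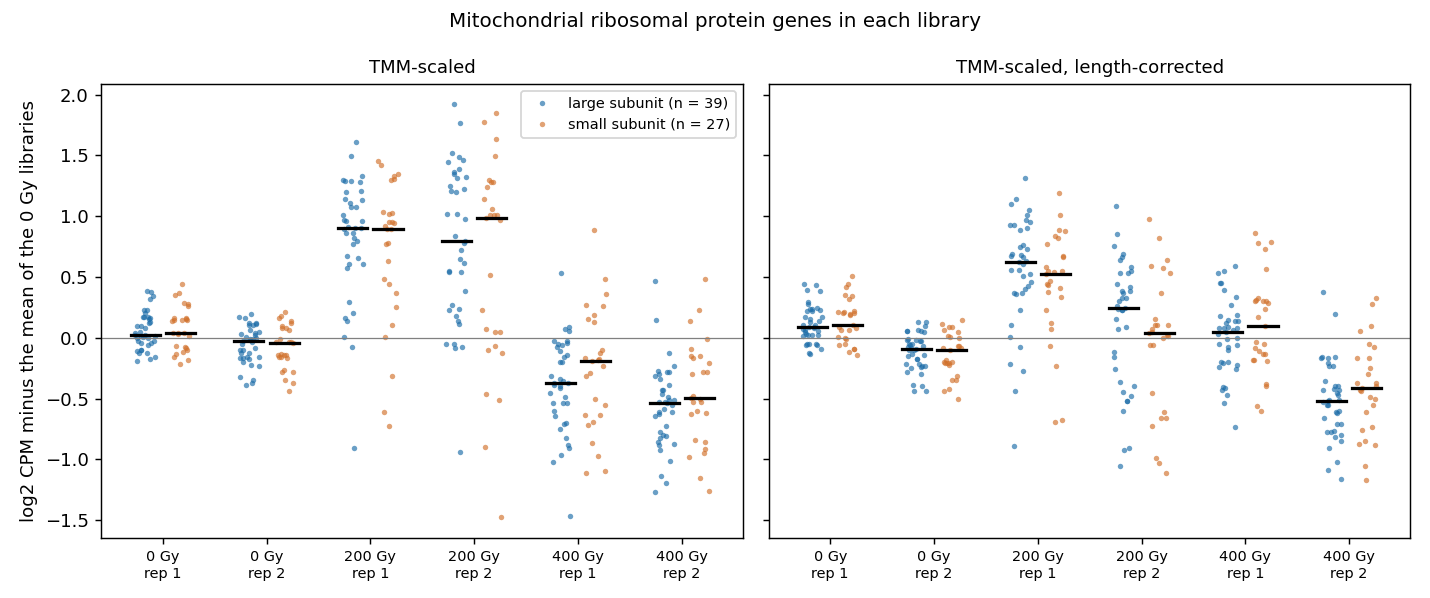
Log2 CPM of each member minus its mean over the 0 Gy libraries, by library (TMM-scaled on the left, length-corrected on the right; each point is 1 gene, blue for the large subunit, orange for the small, black bars the medians). On the left the medians are above 0 in both 200 Gy libraries and below 0 in both 400 Gy libraries; on the right the medians of 200 Gy replicate 2 and 400 Gy replicate 1 lie nearer 0.

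At 200 Gy against 0 Gy, 21 of the 66 members (31.8%) were higher and 0 were lower at an adjusted p under 0.05 (edgeR quasi-likelihood test, Benjamini-Hochberg over all 14417 genes). Over all genes tested, 7.03% were higher and 8.71% lower. The members called were 12 of 39 in the large subunit (30.8%) and 9 of 27 in the small subunit (33.3%). The median log2 fold change was 0.90 for the large and 0.96 for the small subunit, against 0.099 over all genes tested, and 59 of the 66 values were positive. The 2 libraries at 200 Gy lay above both 0 Gy libraries in 49 members and below both in 5, where 33.3% and 29.9% of all genes tested did so. Length-corrected, they lay above in 31 members and below in 9, against 29% and 27.2% of all genes tested, and 26 overlapped. At an unadjusted p under 0.05, 37 members were higher and 2 lower, where 2805 and 2553 of the 14417 genes tested were. The DESeq2 Wald test called 20 members higher and 0 lower, where it called 10.8% of all genes tested higher and 12.3% lower.

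Among the large-subunit members the highest fold changes were those of mrpl-35 and mrpl-36, both with counterparts in the bacterial ribosome. The gene mrpl-35 (III:3510245-3510921, WBcel235 build) had 95.1 and 128 CPM in the 200 Gy libraries, against 34.1 and 33.3 CPM in the 0 Gy libraries. The doses did not overlap, and the lower 200 Gy library was far above both 0 Gy libraries. This was a 3.31-fold difference, a log2 fold change of 1.73 ± 0.31 (SE; edgeR adjusted p = 0.0229). The gene mrpl-36 (III:9847695-9848110), the shortest member with 234 bases of coding length, had 75.2 and 83.9 CPM at 200 Gy against 22.9 and 26.4 CPM at 0 Gy. Its libraries did not overlap either, and its log2 fold change was 1.69 ± 0.36 (edgeR adjusted p = 0.027).

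Several large-subunit proteins that are specific to mitochondria followed. For mrpl-41 the 200 Gy libraries had 95.9 and 107 CPM, against 39.9 and 37.97 CPM at 0 Gy. Those of mrpl-55 had 52.9 and 60.8 CPM, against 24.2 and 19.4 CPM at 0 Gy, and those of mrpl-49 had 78.2 and 102 CPM, against 40.1 and 31.5 CPM at 0 Gy. In all 3 the doses were apart, with log2 fold changes of 1.38, 1.38 and 1.33 (edgeR adjusted p = 0.027, 0.0279 and 0.034). The gene mrpl-22, whose bacterial counterpart lines the tunnel through which the new chain leaves, rose to 65.3 and 62.5 CPM at 200 Gy, against 29.1 and 24.4 CPM at 0 Gy (log2 fold change 1.26 ± 0.29, edgeR adjusted p = 0.0314). Both mrpl-18, the member with the highest mean RPKM, and mrpl-12, which in bacteria forms the stalk that binds translation factors, were also called, with log2 fold changes of 1.23 and 1.14 (edgeR adjusted p = 0.0442 and 0.0489). The other 4 large-subunit members called were mrpl-20, mrpl-17, mrpl-32 and mrpl-54, with log2 fold changes from 1.17 to 1.38.

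In the small subunit mrps-24 and mrps-33 had the highest fold changes. The gene mrps-24 (IV:7710047-7710725), a counterpart of a bacterial protein at the entry of the messenger RNA, had 152 and 215 CPM at 200 Gy against 57.1 and 62.4 CPM at 0 Gy. The gene mrps-33 (IV:8739595-8740026), specific to mitochondria, had 132 and 184 CPM at 200 Gy against 48.0 and 60.1 CPM at 0 Gy. In each, replicate 2 was the higher library at 200 Gy and both 200 Gy libraries were above both 0 Gy libraries. Their log2 fold changes were 1.62 ± 0.34 and 1.55 ± 0.34 (edgeR adjusted p = 0.0261 and 0.0277). The gene mrps-17, with a bacterial counterpart, followed with 146 and 184 CPM at 200 Gy against 55.8 and 62.5 CPM at 0 Gy (log2 fold change 1.48, edgeR adjusted p = 0.0277).

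Close to these was mrps-2 (V:8465686-8467026), the counterpart of a bacterial small-subunit protein, with 252 and 265 CPM at 200 Gy against 96.1 and 91.7 CPM at 0 Gy. Its 4 values fell into narrow pairs well apart from each other. The log2 fold change was 1.46 ± 0.33 (edgeR adjusted p = 0.0295). The gene mrps-12, whose bacterial counterpart sits at the decoding centre and is where streptomycin resistance arises, had 53.97 and 53.0 CPM at 200 Gy against 26.9 and 25.5 CPM at 0 Gy. It was the smallest change called, with a log2 fold change of 1.03 ± 0.28 (edgeR adjusted p = 0.0469). The remaining calls were mrps-7, mrps-18B, mrps-23 and mrps-25, with log2 fold changes from 1.09 to 1.25. With the length correction 0 of the 66 members were called in edgeR, where 2.19% of all genes tested were higher and 2.41% lower. At an unadjusted p under 0.05, 7 members were then higher and 2 lower, where 2065 and 1922 of the 14417 genes tested were. In each direction this was a smaller share of the members than of all genes. The medians were 0.43 for the large and 0.28 for the small subunit, against 0.091 over all genes tested. Without 0 Gy replicate 1, and without 0 Gy replicate 2, no gene tested passed, so the lack of member calls there says nothing about the members. For the small subunit edgeR then gave median log2 fold changes of 1.06 and 0.72. Without 200 Gy replicate 2 it called 6 members higher and 3.18% of all genes tested, without 400 Gy replicate 1 it called 3 members and 3.48%, and without 400 Gy replicate 2 it called 2 members and 2.75%.

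**Figure D2:**
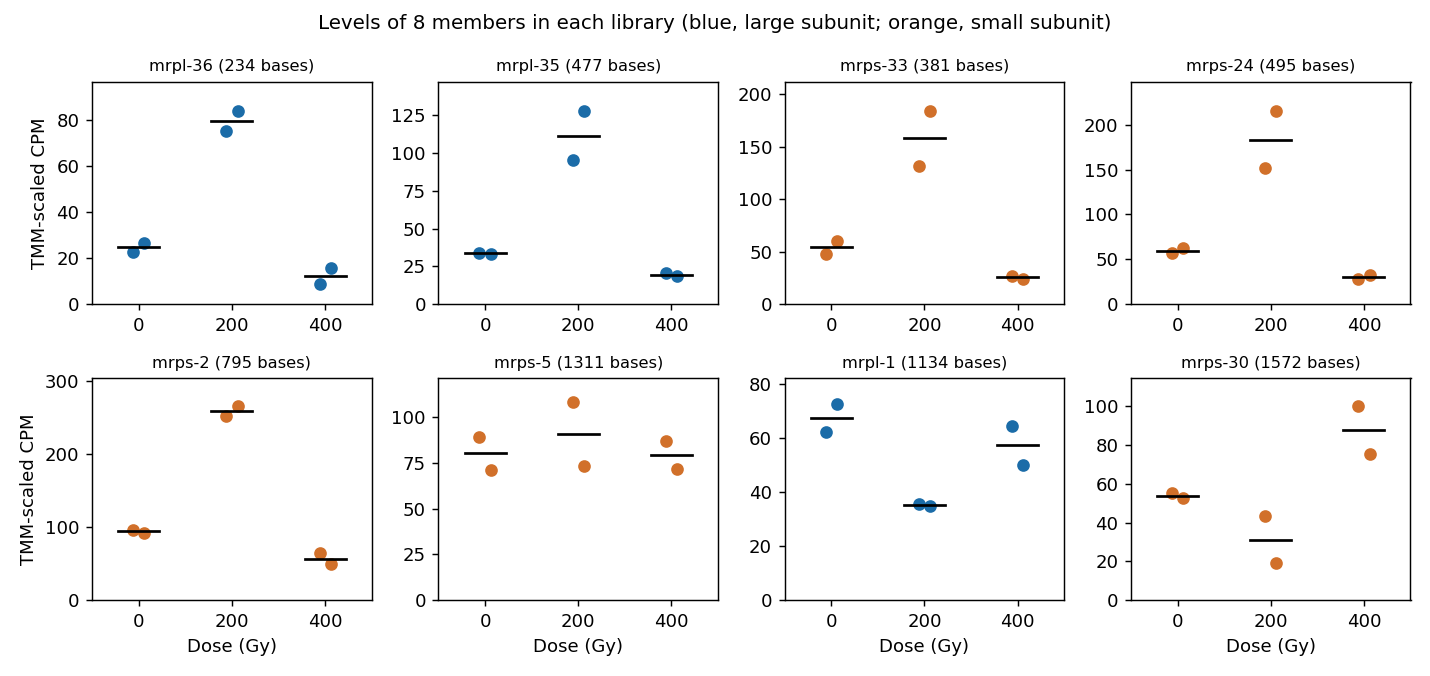
TMM-scaled CPM of 8 members by dose (Gy); each point is 1 library and each line the mean of the 2 libraries, blue for the large and orange for the small subunit. The first 5 are highest at 200 Gy, mrps-5 overlaps at all doses, and mrpl-1 and mrps-30 are lowest at 200 Gy.

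Other members had values below 0 or near it and did not pass. The gene mrpl-1 (IV:7707684-7709083), for the protein of the mobile stalk near the site where spent transfer RNA leaves, had 35.7 and 34.95 CPM at 200 Gy against 62.2 and 72.7 CPM at 0 Gy. Its libraries did not overlap, with the 200 Gy pair lower, but the difference missed the threshold (log2 fold change -0.93 ± 0.30, edgeR adjusted p = 0.0682). Likewise mrps-31, specific to mitochondria, had 24.8 and 21.95 CPM at 200 Gy against 37.8 and 44.6 CPM at 0 Gy (log2 fold change -0.82, edgeR adjusted p = 0.0852). For mrps-30 the 200 Gy libraries were far apart, with 43.2 and 19.3 CPM, against 55.4 and 52.5 CPM at 0 Gy (log2 fold change -0.79, edgeR adjusted p = 0.202). That value was -1.67 without 200 Gy replicate 1 and -0.42 without 200 Gy replicate 2. Length-corrected, the log2 fold changes of mrpl-1, mrps-31 and mrps-30 were -0.98, -0.84 and -0.51.

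The gene mrps-5, best known for its effect on life span in the worm, had 108 and 73.1 CPM at 200 Gy against 89.0 and 71.2 CPM at 0 Gy. Those libraries overlapped (log2 fold change 0.18 ± 0.34, edgeR adjusted p = 0.735). The stalk genes differed among themselves in value: beside the called mrpl-12, mrpl-10, whose bacterial counterpart anchors the stalk, had a log2 fold change of 0.12 (edgeR adjusted p = 0.787) and mrpl-11, at the stalk's base, one of -0.08 (edgeR adjusted p = 0.873). Length-corrected, mrpl-10 had -0.34, mrpl-11 -0.66 and mrpl-12 0.44, and none of them passed (edgeR adjusted p = 0.548, 0.272 and 0.485). The gene mrpl-2, next to the peptidyl transferase centre in bacteria, had 0.97 (edgeR adjusted p = 0.0769).

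At 400 Gy against 0 Gy, 0 members passed in edgeR, where 0.0416% of all genes tested were higher and 0.00694% lower. At an unadjusted p under 0.05, 0 members were higher and 15 lower (9 large, 6 small), where 1746 and 1498 of the 14417 genes tested were. The DESeq2 Wald test called 0 members as well, where it called 6.58% of all genes tested higher and 2.8% lower. At its unadjusted p under 0.05, 0 members were higher and 10 lower, where 2016 and 1197 of the 14417 genes tested were. Of the 66 log2 fold changes 58 were negative, with a median of -0.48 in the large and -0.30 in the small subunit, against -0.035 over all genes tested. Both 400 Gy libraries lay below both 0 Gy libraries in 43 members and above both in 3, where 31.1% and 28.1% of all genes tested did so. With the correction they lay below in 20 members and above in 3, against 29.3% and 21.9% of all genes tested. Length-corrected, the medians were -0.25 and -0.08, and 0 passed in edgeR, where 1.23% of all genes tested were higher and 0.603% lower. At an unadjusted p under 0.05, 0 members were then higher and 2 lower, where 1433 and 1300 of the 14417 genes tested were.

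The 5 members with the smallest p in this comparison were mrps-23, mrpl-32, mrpl-13, mrps-33 and mrpl-54. The gene mrps-23, specific to mitochondria, had 11.9 and 10.7 CPM at 400 Gy against 24.7 and 27.4 CPM at 0 Gy. For mrpl-32, which in yeast and mammals is cut to its mature form by a protease of the inner membrane, the values were 23.8 and 21.97 CPM at 400 Gy against 49.0 and 48.1 CPM at 0 Gy. In both genes the libraries of a dose were close together and those of the doses well apart. Log2 fold changes were -1.20 ± 0.31 for mrps-23, -1.08 ± 0.31 for mrpl-32, -1.08 ± 0.32 for mrpl-13, -1.08 ± 0.33 for mrps-33 and -0.92 ± 0.29 for mrpl-54 (edgeR adjusted p = 0.102, 0.113, 0.122, 0.129 and 0.132). At the other end were mrps-30, with 99.9 and 75.3 CPM at 400 Gy against 55.4 and 52.5 CPM at 0 Gy, and mrpl-37, with 35.6 and 33.9 CPM at 400 Gy against 26.2 and 22.9 CPM at 0 Gy. Their libraries did not overlap, but the edgeR adjusted p was 0.345 for mrps-30 and 0.391 for mrpl-37. With a fit to the 4 libraries of these doses alone, 4 members (6.06%) were lower and 0 higher, where 5.13% of all genes tested were lower and 10.3% higher. Without 200 Gy replicate 1, 4 members were lower, where 4.4% of all genes tested were, and without 200 Gy replicate 2 also 4, where 4.94% were. These shares are near the background.

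At 400 Gy against 200 Gy, 41 members (62.1%) were lower and 1 was higher in edgeR, where 16.2% of all genes tested were lower and 15% higher. The 41 were 27 of 39 in the large subunit (69.2%) and 14 of 27 in the small subunit (51.9%). The median log2 fold change was -1.32 in each subunit, against -0.102 over all genes tested. Both 400 Gy libraries lay below both 200 Gy libraries in 54 members and above both in 4, where 34.6% and 31.1% of all genes tested did so. Length-corrected, they lay below in 37 members and above in 5, against 29.5% and 22.9% of all genes tested. The DESeq2 Wald test called 39 lower and 1 higher, among 16.1% lower and 18.7% higher over all genes tested. This comparison and that of 200 Gy against 0 Gy share the 200 Gy libraries, so their values are not independent. In all, 24 members passed in none of the 3 comparisons.

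The genes with the largest values were largely those named above. The values of mrpl-36 were 8.76 and 15.7 CPM at 400 Gy against 75.2 and 83.9 CPM at 200 Gy. The libraries of the doses were wide apart, and the log2 fold change was -2.70 ± 0.38 (edgeR adjusted p = 0.00371). Those of mrps-33 were 27.2 and 24.0 CPM at 400 Gy against 132 and 184 CPM at 200 Gy, a log2 fold change of -2.63 ± 0.35 (edgeR adjusted p = 0.00331). The values of mrps-24 were 27.8 and 32.9 CPM at 400 Gy against 152 and 215 CPM at 200 Gy, and its log2 fold change was -2.60 ± 0.35 (edgeR adjusted p = 0.00334). For mrpl-35, with 20.7 and 18.3 CPM at 400 Gy against 95.1 and 128 CPM at 200 Gy, it was -2.52 ± 0.32 (edgeR adjusted p = 0.00322). In all 4 genes both 400 Gy libraries lay far below both 200 Gy libraries. Also among the 10 with the smallest p were mrps-23 with -2.33, mrps-17 with -2.30, mrpl-32 with -2.25, mrps-2 with -2.19, mrpl-54 with -2.09 and mrpl-55 with -1.99 (edgeR adjusted p from 0.0034 to 0.0049). Of the 5 members of prior interest, mrpl-12 (-1.61), mrps-12 (-1.62) and mrpl-2 (-1.32) were lower, with edgeR adjusted p = 0.0095, 0.00662 and 0.0208. None of these 3 passed with the length correction (edgeR adjusted p = 0.355, 0.346 and 0.143), and mrpl-2 had -0.85 without 200 Gy replicate 1 (edgeR adjusted p = 0.105). The other 2, mrpl-10 (log2 fold change -0.60, edgeR adjusted p = 0.151) and mrps-5, did not pass.

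The member that was higher was mrps-30 (I:10636799-10638956), which is also the longest, with 1572 bases of coding length. It had 99.9 and 75.3 CPM at 400 Gy against 43.2 and 19.3 CPM at 200 Gy. The doses did not overlap, though its libraries at 200 Gy differed more than those of other members. Its log2 fold change was 1.49 ± 0.42 (edgeR adjusted p = 0.031), and 1.06 length-corrected, where it did not pass (edgeR adjusted p = 0.145). Over 15 alternatives, mostly without the length correction, mrps-30 passed in 8. Without 200 Gy replicate 1 the uncorrected log2 fold change was 2.40, and without 200 Gy replicate 2 it was 1.14. Members with overlapping or nearby values were mrps-5, with 87.2 and 71.7 CPM at 400 Gy against 108 and 73.1 CPM at 200 Gy (log2 fold change -0.19, edgeR adjusted p = 0.695), and mrpl-11, with 77.6 and 65.4 CPM at 400 Gy against 74.6 and 74.9 CPM at 200 Gy (log2 fold change -0.07, edgeR adjusted p = 0.884, and 0.83 length-corrected).

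With the length correction 4 members were lower at 400 Gy than at 200 Gy in edgeR and 0 were higher, where 2.91% of all genes tested were lower and 2.07% higher. At an unadjusted p under 0.05, 21 members were then lower and 3 higher, where 2171 and 1538 of the 14417 genes tested were. The 4 were mrpl-36, mrpl-35, mrps-24 and mrps-2, with length-corrected log2 fold changes of -1.60, -1.40, -1.53 and -1.58. Their length-corrected edgeR adjusted p was 0.0333 for mrpl-36, 0.0499 for mrpl-35, 0.0363 for mrps-24 and 0.0471 for mrps-2. Without the length correction, the DESeq2 Wald test gave adjusted p = 1.29e-07, 3.17e-07, 6.08e-08 and 7.71e-06 in that order. Over 15 alternatives, mostly without the length correction, mrps-2 passed in 14 and mrpl-36, mrpl-35 and mrps-24 in all 15. The medians were -0.63 for the large and -0.43 for the small subunit, against -0.085 over all genes tested. In fits without the correction, 11 members were lower without 400 Gy replicate 2, where 5.63% of all genes tested were, and 16 without 400 Gy replicate 1, where 2.29% were.

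Within the family, fold changes followed coding length. The members were divided by length into 3 groups of 22, of 234 to 552 bases, 552 to 798 bases and 831 to 1572 bases. At 200 Gy against 0 Gy the median log2 fold change was 1.15 in the shortest group, 0.90 in the middle and 0.40 in the longest, with 14, 7 and 0 members higher. Length-corrected, those medians were 0.44, 0.37 and 0.32. Between 400 Gy and 0 Gy they were -0.70, -0.37 and -0.27, and -0.36, -0.14 and -0.19 length-corrected. Between 400 Gy and 200 Gy they were -1.92, -1.23 and -0.55, with 20, 13 and 8 members lower, and -0.80, -0.54 and -0.52 length-corrected, with 3, 1 and 0 lower. The Spearman correlation of log2 fold change with length across the 66 members was -0.64, 0.55 and 0.68 in the 3 comparisons, and -0.53, 0.39 and 0.69 across all genes tested. The genes share their libraries and are not independent. After the correction, which was fitted on all genes, it was -0.15, 0.33 and 0.32 across the members and -0.04, 0.04 and 0.06 across all genes tested.

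**Figure D3:**
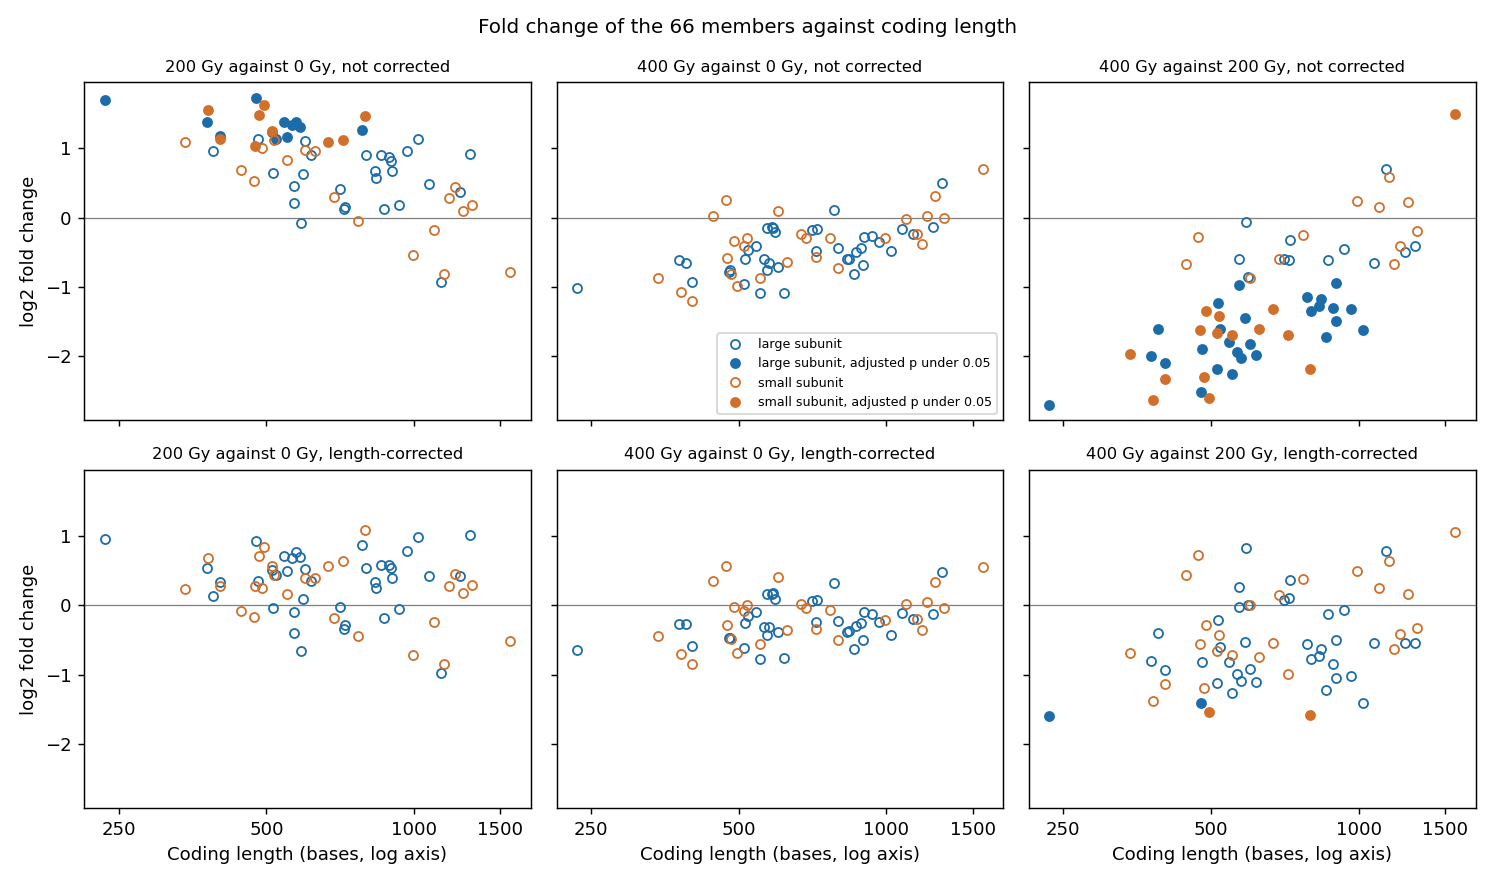
Log2 fold change of each member against coding length (bases, log axis) in the 3 comparisons, without correction above and length-corrected below; blue is the large and orange the small subunit, and filled points have an edgeR adjusted p under 0.05. Without correction the shortest members have the highest values at 200 Gy and the lowest at 400 Gy, and with it the slope is smaller and 4 filled points are left.

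Without the length correction, the only setting in which this was computed, the large subunit weighed slightly less against the small one at 400 Gy. The ratio of their summed CPM (large over small) was 1.47 and 1.48 in the 0 Gy libraries, 1.51 and 1.47 in the 200 Gy libraries and 1.32 and 1.34 in the 400 Gy libraries. The 400 Gy libraries were thus the lowest in this ratio. The human counterparts of mrps-30 and mrps-18A sit in the large subunit, despite their names. With these 2 counted there, a choice made after the values were seen, it was 1.74 and 1.82 in the 0 Gy libraries, 1.72 and 1.70 in the 200 Gy libraries and 1.66 and 1.68 in the 400 Gy libraries. The 400 Gy libraries stayed lowest, by a smaller margin. No test of the ratio is given, since an exact two-sided permutation test of 2 against 2 libraries cannot go below p = 0.333. Unlike mrps-30, mrps-18A had 49.2 and 49.8 CPM at 400 Gy against 139 and 181 CPM at 200 Gy, a log2 fold change of -1.69 (edgeR adjusted p = 0.00869).

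Counts of some members may hold reads of a neighbour. In the annotation 18 members share exon bases with another protein-coding gene, 5 of them over more than 10% of their exon bases. These are mrps-16 (27.8%, with ilcr-2), mrps-18A (24.0%, with iglr-2), mrpl-1 (18.1%, with emc-6), mrpl-34 (11.3%, with aha-1) and mrps-35 (11.1%, with sws-1). No source used here gives the counting rule for such reads, and the library kit does not mark strand, so the values of these 5 are uncertain.

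Other gene groups that serve the mitochondrion or the ribosome were set beside the members. Proteins of the cytosolic ribosome, 78 genes with a median coding length of 453 bases, had a median log2 fold change of 0.86 at 200 Gy against 0 Gy (7 higher, or 8.97%, against 7.03% of all genes tested; 0 lower), -0.24 at 400 Gy against 0 Gy (0 called, 3 at an unadjusted p under 0.05 and 0 by DESeq2) and -1.07 at 400 Gy against 200 Gy (33 lower, or 42.3%, against 16.2%; 0 higher), by edgeR over all genes. Length-corrected, the medians were 0.30, 0.08 and -0.17 with 0 called in each (0, 0 and 6 at an unadjusted p under 0.05). In the length-corrected fit for 400 Gy against 200 Gy, the medians of the mitochondrial subunits (-0.63 and -0.43) were lower than that of the cytosolic proteins, a difference between the lists that was not tested. Nuclear genes of the respiratory chain and ATP synthase, 38 tested with a median coding length of 627 bases, had medians of 0.93, -0.12 and -0.96, with 8 higher (21.1%), 0 called (4 at an unadjusted p under 0.05; DESeq2 called 3) and 17 lower (44.7%) in edgeR. Length-corrected, the medians were 0.67, 0.10 and -0.53. In that fit 3 of them (7.89%, against 2.91% of all genes tested) were lower at 400 Gy against 200 Gy, among them cox-17, a copper carrier for cytochrome oxidase (log2 fold change -1.87, edgeR adjusted p = 0.0273).

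**Figure D4:**
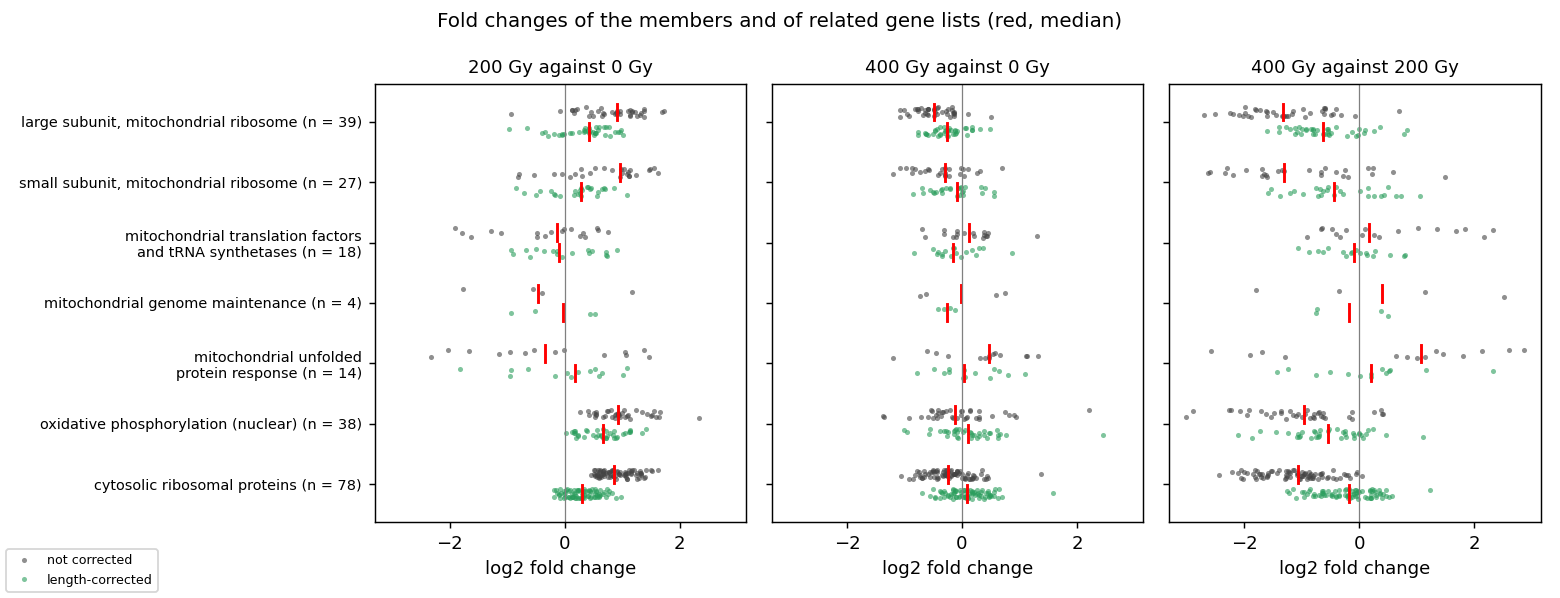
Log2 fold change of each gene of the 2 subunits and of 5 related lists in the 3 comparisons, without correction (grey) and length-corrected (green), with medians in red. Without correction the medians of both mitochondrial subunits, the cytosolic ribosome and oxidative phosphorylation lie right of 0 at 200 Gy against 0 Gy and left of 0 at 400 Gy against 200 Gy; the translation factors and tRNA synthetases spread around 0.

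Without the length correction, the factors that work with the mitochondrial ribosome had medians nearer 0, a difference between the lists that was not tested. Of 26 genes listed for mitochondrial translation factors and aminoacyl-tRNA synthetases, 18 were found and tested. Their median coding length was 1468.5 bases (622.5 bases in the members). The medians of these 18 were -0.14 at 200 Gy against 0 Gy, 0.12 at 400 Gy against 0 Gy and 0.18 at 400 Gy against 200 Gy. At 200 Gy against 0 Gy 3 were lower (16.7%, against 8.71% of all genes tested), the alanyl, leucyl and valyl synthetases aars-1 (log2 fold change -1.78, edgeR adjusted p = 0.0289), lars-2 (-1.90, edgeR adjusted p = 0.0244) and vars-1 (-1.64, edgeR adjusted p = 0.0255). At 400 Gy against 200 Gy 4 were higher (22.2%, against 15% of all genes tested), aars-1, lars-2, vars-1 and the isoleucyl synthetase iars-2 (2.17, 2.33, 1.85 and 1.68, edgeR adjusted p = 0.00723, 0.00533, 0.00681 and 0.0229). Between 400 Gy and 0 Gy 0 were called by edgeR or DESeq2 (1 at an unadjusted p under 0.05). Length-corrected, the medians were -0.09, -0.15 and -0.09 in the 3 comparisons. With that correction 0 of the 18 were called in any comparison (3, 1 and 3 at an unadjusted p under 0.05). The gene dap-3, a protein of the small mitochondrial subunit under another name, had log2 fold changes of -0.004, 0.04 and 0.04 in the 3 comparisons.

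Of 4 genes tested for the upkeep and transcription of mitochondrial DNA, 2 passed, in opposite directions. The mitochondrial RNA polymerase rpom-1 (3471 bases) was lower at 200 Gy against 0 Gy (log2 fold change -1.77, edgeR adjusted p = 0.0241) and higher at 400 Gy against 200 Gy (2.52, edgeR adjusted p = 0.00363). The single-stranded DNA-binding protein mtss-1 (513 bases) was higher at 200 Gy (1.16, edgeR adjusted p = 0.0415) and lower at 400 Gy against 200 Gy (-1.79, edgeR adjusted p = 0.0061). Length-corrected, neither passed. Proteins encoded by the mitochondrial genome itself were not analysed here.

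In the mitochondrial unfolded protein response, which loss of mitochondrial ribosomal proteins is known to induce in worms, the chaperones hsp-6 and hsp-60 had log2 fold changes of -0.01 and 0.69 at 200 Gy against 0 Gy (edgeR adjusted p = 0.99 and 0.441) and 1.13 and 1.32 at 400 Gy against 0 Gy (edgeR adjusted p = 0.279 and 0.247). Of 14 genes in this list, 2 were higher and 3 lower at 200 Gy against 0 Gy, 0 were called at 400 Gy against 0 Gy by edgeR or DESeq2 (1 at an unadjusted p under 0.05), and 5 were higher and 4 lower at 400 Gy against 200 Gy. These calls were 14.3% and 21.4% of the list at 200 Gy against 0 Gy, where 7.03% and 8.71% of all genes tested were called, and 35.7% and 28.6% at 400 Gy against 200 Gy, where 15% and 16.2% were. Length-corrected, 0 were higher and 1 lower (7.14%) at 200 Gy against 0 Gy, where 2.19% and 2.41% of all genes tested were. At 400 Gy against 200 Gy 1 was then higher and 1 lower (7.14% each), where 2.07% and 2.91% of all genes tested were. The transcription factor dve-1 was lower at 200 Gy against 0 Gy with and without the correction (log2 fold change -2.03, edgeR adjusted p = 0.0261; -1.83 length-corrected, edgeR adjusted p = 0.0438). It was higher at 400 Gy against 200 Gy in both (2.60, edgeR adjusted p = 0.00546; 2.32 length-corrected, edgeR adjusted p = 0.0248). Its partner ubl-5, a short ubiquitin-like protein, was higher at 200 Gy against 0 Gy (1.39, edgeR adjusted p = 0.0403), which did not pass length-corrected (0.65, edgeR adjusted p = 0.224), and lower at 400 Gy against 200 Gy (-2.58, edgeR adjusted p = 0.00412; -1.44 length-corrected, edgeR adjusted p = 0.0418).

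Markers of tissues also differed between libraries. The summed CPM of 5 yolk genes of the hermaphrodite intestine was 20300 and 38300 in the 0 Gy libraries, 31100 and 9370 in the 200 Gy libraries, and 61000 and 32000 in the 400 Gy libraries. For 10 germline and oocyte genes it was 4850 and 1830 CPM at 0 Gy, 5180 and 968 CPM at 200 Gy, and 11000 and 5400 CPM at 400 Gy. Replicates differed widely in both lists, and the ranges at 0 Gy and 200 Gy overlapped. Genes of the early embryo (7) and of the epidermis (5) were lowest at 200 Gy: the embryo list had 65.1 and 98.1 CPM at 0 Gy, 11.4 and 16.3 CPM at 200 Gy, and 32.6 and 33.4 CPM at 400 Gy, and the epidermis list 256 and 299 CPM, 36.4 and 36.9 CPM, and 65.3 and 190 CPM at the same doses. Without the length correction, muscle genes were highest at 400 Gy. The 6 genes of the body wall had 1710 and 2700 CPM at 0 Gy, 5680 and 2730 CPM at 200 Gy, and 7670 and 7360 CPM at 400 Gy. The 4 genes of the pharynx had 27.8 and 27.4 CPM, 53.0 and 84.4 CPM, and 185 and 179 CPM at the same doses. All marker sums here are without the length correction. At 400 Gy against 200 Gy the median log2 fold changes of body wall, pharynx, yolk and germline genes were 1.61, 1.91, 1.09 and 1.15. Length-corrected, they were -0.29, 0.33, -1.56 and -0.09. For early embryo and epidermis they went from 0.365 and 2.99 to 0.655 and 0.24. Against 0 Gy, the length-corrected medians of body wall and pharynx were 1.28 and 1.502 at 200 Gy, and 1 and 2.025 at 400 Gy. In that fit edgeR called 1 body wall and 2 pharynx genes higher at each dose. The medians of yolk and germline were 0.241 and 0.297 at 200 Gy, and -1.384 and 0.586 at 400 Gy. Those of early embryo and epidermis were -2.205 and -2.229 at 200 Gy, and -1.551 and -1.703 at 400 Gy. Sperm genes (8) had 16.4 and 16 CPM at 0 Gy, 24 and 67.4 CPM at 200 Gy, and 52.3 and 123 CPM at 400 Gy. The 7 tested had a median log2 fold change of 2.202 at 400 Gy against 0 Gy, and 2.302 length-corrected. All 7 values were positive in both fits. Without the correction edgeR called 0 of them and DESeq2 called 5 higher, and with it edgeR called 2 higher. Genes of neurons (6) had from 198 to 336 CPM over the libraries. Of all these markers 0 were without counts in every library. The 6 neuron genes summed to 206 and 249 CPM at 0 Gy, 266 and 336 CPM at 200 Gy, and 198 and 224 CPM at 400 Gy. Their sum was highest at 200 Gy, but at 200 Gy against 0 Gy edgeR called 3 of them lower and 1 higher, and their median log2 fold change was -1.97 (-1.40 length-corrected). The part of tissue make-up in the members' values was not tested.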

How the data were processed

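Counts and RPKM of 6 whole-worm RNA sequencing libraries were read from the deposited table. Per the labels' protocols, RNA came from a Trizol extraction and was built into TruSeq libraries. Per the submitters' processing notes, bcl2fastq and TopHat2 2.0.13 were run against the WBcel235 build; the read counter, its handling of overlaps and the annotation release are not stated. The deposited counts are raw reads per gene, as the authors made them, and the deposited RPKM values of the authors equal the count over the listed length and the library's total for 100% of the values, so RPKM served only to compare levels between genes. The listed lengths of 98.5% of the members are multiples of 3 and are called coding lengths.

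Members and lists were chosen with earlier results of these data known. Genes kept by filterByExpr (14417) entered the quasi-likelihood test of edgeR 4.0.16 (R 4.3.3) over all 6 libraries, with TMM factors (0.751 to 1.24), 3 residual degrees of freedom and a biological coefficient of variation of 35.1%. Benjamini-Hochberg adjustment ran over all genes, with a threshold of 0.05, and an SE is the log2 fold change over the root of F. The length correction removed a loess trend (span 0.3) of each library's log2 deviation on log2 coding length as offsets. Other alternatives were DESeq2 1.42.0, its size factors, upper-quartile scaling, no filter, the 4 libraries of a comparison alone, the replicate block, each library left out, and ribosomal RNA genes left out. Replicates differed beyond counting noise, with a chi-square per degree of freedom of 62.9, 96.6 and 118 at 0, 200 and 400 Gy. The steps were tested on simulated counts.

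Named members were, per comparison, up to 10 with the smallest p past the threshold (or the 5 smallest where fewer passed), the 2 largest fold changes of each sign and subunit, the 3 highest and 3 lowest by mean RPKM in each subunit, and 5 genes of prior interest (mrps-5, mrps-12, mrpl-2, mrpl-10 and mrpl-12). Of each related list, up to 4 members past the threshold or the 2 with the smallest p were taken. The genes dap-3, mrpl-4, mrps-15, hsp-6, hsp-60 and others outside this rule were named after their values were seen. Of the members, 65 were matched to the Ensembl annotation by symbol and 1 by position.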

Additional observations from a re-analysis of the deposited data

How the results depend on the processing

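The median log2 fold changes of both subunits kept their sign in all 3 comparisons under every alternative run, and the counts of called members did not keep their size. With DESeq2 size factors 13 members were called at 200 Gy against 0 Gy, all higher (7.07% of all genes tested), against 21 in the fit reported (7.03%), with no filter 11 (3.72%), with the 4 libraries alone 7 (4.12%), with ribosomal RNA genes left out 12 (4.92%) and with the length correction 0 (2.19%). Upper-quartile scaling gave more calls, 27, all higher (7.6%), and the DESeq2 Wald test 20, all higher (10.8%). For 400 Gy against 0 Gy, where 0 were called, the 4 libraries alone gave 4, all lower (5.13% of all genes). For 400 Gy against 200 Gy, where 42 were called, the length correction left 4, all lower (2.91% of all genes). The cause was not tested.

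Same-numbered replicates deviated together across genes (correlation of deviations 0.48, 0.37 and 0.60 for 200 Gy and 0 Gy, 400 Gy and 0 Gy, and 400 Gy and 200 Gy), but with 2 numbers and no label that ties them this does not show a pairing. With the replicate number as a block 44 members were called at 200 Gy against 0 Gy (41 higher and 3 lower, against 23.1% and 21.6% of all genes), 15 at 400 Gy against 0 Gy (0 higher and 15 lower, against 14.3% and 10.6%) and 48 at 400 Gy against 200 Gy (2 higher and 46 lower, against 25.9% and 27.1%). With the block and the length correction 19 (15 higher and 4 lower, against 16.9% and 15.1%), 3 (0 and 3, against 9.51% and 7.92%) and 34 (4 and 30, against 13.7% and 18.6%) were called in that order, with medians of 0.45, -0.26 and -0.64 in the large and 0.27, -0.10 and -0.39 in the small subunit.

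In the same order the length-corrected medians were 0.43, -0.25 and -0.63 in the large and 0.28, -0.08 and -0.43 in the small subunit. Upper-quartile scaling moved the median of all genes from 0.099, -0.035 and -0.102 to 0.195, -0.121 and -0.285, and gave small-subunit medians of 1.09, -0.40 and -1.52 and a large-subunit median of -1.49 at 400 Gy against 200 Gy. With ribosomal RNA genes left out they were 0.77 and 0.82 (large and small) at 200 Gy against 0 Gy and -1.16 and -1.15 at 400 Gy against 200 Gy. The small-subunit median was 0.87 with the 4 libraries alone at 200 Gy against 0 Gy, and -1.22 with DESeq2 size factors and -1.23 with the DESeq2 Wald test at 400 Gy against 200 Gy.

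Leaving out each library in turn gave 0 to 20 calls at 200 Gy against 0 Gy, where 0% to 12.3% of all genes were called higher and 0% to 18.3% lower, with medians of 0.59 to 0.91 (large) and 0.72 to 1.06 (small). It gave 0 to 4 calls at 400 Gy against 0 Gy (0% to 11.3% and 0% to 4.94% of all genes), with medians of -0.56 to -0.35 and -0.52 to -0.20, and 11 to 36 calls at 400 Gy against 200 Gy (6.43% to 22.3% and 2.29% to 15.7%), with medians of -1.48 to -1.07 and -1.32 to -1. A lone library of a dose is then assumed to vary like the other doses.

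Over all 66 members, 59 log2 fold changes were positive at 200 Gy against 0 Gy in the fit reported and 48 with the length correction. Among the members named by the rule, those that changed sign had not passed in the fit reported. At 200 Gy against 0 Gy, mrpl-10 had -0.34 length-corrected, -0.33 with the block added, -0.01 without ribosomal RNA genes and -0.10 to 0.18 over left-out libraries. There mrpl-11 had 0.03 with upper-quartile scaling, mrps-22 had -0.01 with the 4 libraries alone, -0.03 without ribosomal RNA genes and -0.26 to 0.15 over left-out libraries, mrps-9 had -0.13 to 0.46 and mrps-5 -0.32 to 0.36. At 400 Gy against 0 Gy, mrpl-11 had 0.18 length-corrected, 0.14 with the block added and -0.28 to 0.02 over left-out libraries, mrpl-30 had 0.09 and 0.08 in those 2 fits, mrpl-22 had -0.03 to 0.25, and mrps-5 had 0.04 with DESeq2 size factors and with the DESeq2 Wald test, 0.01 without ribosomal RNA genes and -0.18 to 0.16 over left-out libraries. At 400 Gy against 200 Gy, mrpl-11 had 0.04 with DESeq2 size factors and with the DESeq2 Wald test, 0.10 without ribosomal RNA genes, 0.83 length-corrected, 0.82 with the block added and -0.20 to 0.25 over left-out libraries; mrpl-30 had 0 and 0.04 and mrpl-10 0.10 and 0.08 length-corrected without and with the block; mrpl-37 had -0.59 to 0.17 and mrps-5 -0.35 to 0.33 over left-out libraries. The causes were not tested.

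With 2 libraries a dose, a missed threshold does not show that a member did not differ: at 200 Gy against 0 Gy mrpl-14, with 1.13, did not pass (edgeR adjusted p = 0.0521), while mrps-12, with 1.03, did.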

Other observations

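Members that lie close together in the genome did not share their values in every case. Worm genes are often read as operons, in which closely spaced genes on 1 strand are transcribed together. A gene upstream on the same strand within 1000 bases was found for 28 of the 66 members (42.4%), against 6023 of 19985 protein-coding genes (30.1%) in the Ensembl annotation of the same build. The median log2 fold change at 200 Gy against 0 Gy was 0.90 in these 28 and 0.91 in the other 38 members. Set against 200 Gy, the 400 Gy median was -1.20 in the 28 and -1.38 in the other 38, and -0.55 and -0.61 length-corrected. In 2 cases members lay within that distance of each other by their listed positions. The genes mrpl-1 and mrps-24 lie on opposite strands, 963 bases apart by those positions. In the annotation emc-6, on the strand of mrpl-1, overlaps mrpl-1 and lies between it and mrps-24, 308 bases from mrps-24. The log2 fold changes of mrpl-1 and mrps-24 were -0.93 and 1.62 at 200 Gy against 0 Gy, of which that of mrps-24 passed in edgeR. The genes mrps-2 and mrpl-4 (V:8467265-8468832) follow each other on 1 strand, 238 bases apart. For mrpl-4, whose bacterial counterpart reaches into the exit tunnel, the 200 Gy libraries had 93.6 and 79.8 CPM, against 55.4 and 53.9 CPM at 0 Gy. They did not overlap, but the log2 fold change of 0.67 did not pass (edgeR adjusted p = 0.146), while mrps-2 next to it had 1.46 and passed. The difference between these genes was not tested. At 400 Gy against 200 Gy both mrpl-4 and mrps-2 were lower, with -0.94 and -2.19 (edgeR adjusted p = 0.0467 and 0.00469). Length-corrected, they had -0.50 and -1.58 there, and mrpl-4 did not pass (edgeR adjusted p = 0.414).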
